A study of Mus musculus with 27 samples.

Results

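Ligands of the transforming growth factor β (TGF-β) superfamily and their secreted antagonist follistatin were followed in C2C12 cells, a mouse myoblast line, that were driven towards adipocytes with the transcription factor NFIA. The genes were taken from the deposited expression files by symbol: Tgfb1, Tgfb2, Tgfb3, Bmp2, Bmp4, Bmp7, Mstn, Inhba, Gdf11 and Fst, 10 of 24825 genes. RNA-seq of polyadenylated RNA had been performed on control cells, on cells with retrovirally introduced full-length NFIA and on cells with the Δpro#3 mutant of NFIA, which lacks the C-terminal residues called the pro#3 domain. Each was sampled at day 0 and day 7 of adipocyte differentiation, and at day 7 after 4 h in 10 µM forskolin, which gave 9 groups of 3 replicates (27 samples). Per the labels, differentiation was induced in the same way in control cells and with either construct: with isobutylmethylxanthine, indomethacin, dexamethasone, insulin, triiodothyronine and rosiglitazone at first, and then with insulin, triiodothyronine and rosiglitazone. NFIA was therefore expressed from a retroviral vector in a single cell line, and control day 7 cells are differentiated myoblast cultures exposed to an adipogenic medium. Forskolin activates adenylyl cyclase and raises intracellular cyclic AMP.

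TGF-β superfamily ligands are secreted as precursors, cleaved by proprotein convertases and bound as dimers by pairs of serine/threonine kinase receptors. TGF-βs, activins, myostatin and GDF11 signal mainly through Smad2 and Smad3, and BMPs through Smad1, Smad5 and Smad9. Follistatin is secreted, binds activins, myostatin and GDF11 tightly and keeps them from their receptors. In muscle, myostatin limits growth and follistatin opposes it. In mesenchymal precursors, BMP4 favors commitment to the adipocyte lineage, whereas TGF-β1 is known as an inhibitor of adipocyte differentiation.

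Levels are given as FPKM (fragments per kilobase of exon, relative to the mapped fragments of the sample), a scale that is divided by gene length, so that levels of different genes can be set beside each other. The samples held 9567769 to 27230965 fragments, with a median of 17707223. Nfia was at 0.0885 to 7.35 FPKM in control samples and at 225 to 594 FPKM in samples with either construct. The highest control value belonged to replicate 2 at day 0, while its 2 fellow replicates were at 0.879 and 0.175 FPKM. Summed over 8 myoblast and muscle markers, the samples at day 0 were at 1093 to 1122 FPKM for control cells, 135 to 143 for full-length NFIA and 393 to 401 for the mutant. Summed over 7 adipocyte markers, the day 7 samples were at 344 to 380 FPKM for control cells, 13352 to 14841 for full-length NFIA and 613 to 2006 for the mutant. The highest of these Δpro#3 values belonged to replicate 1. Of 4 macrophage, 3 endothelial and 3 epithelial markers, Cd68 alone had a mean over 0.5 FPKM. Since these are bulk samples, fewer cells of a type and less RNA per cell cannot be told apart in any value below.

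Of the 10 genes, 7 were expressed at every time point. Bmp2 (chromosome 2:133377895-133388621, plus strand, NCBIM37, the mm9 assembly) had 0 fragments in all 27 samples. A count of 0 allows at most 0.0309 FPKM in the deepest and 0.0879 FPKM in the shallowest sample, by counting error only. Bmp7 (2:172693513-172765822, minus strand) had 2 fragments in total, in 1 control and 1 Δpro#3 mutant sample after forskolin. Both encode bone morphogenetic proteins, and neither could be compared at this depth. Mstn (1:53118507-53124923, plus strand), which encodes myostatin, stayed at or below 1.93 FPKM and was above the filter of the limma fits only at day 7.

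The others are protein-coding genes on 6 chromosomes. Tgfb1 (7:26472021-26490096, plus), Tgfb2 (1:188447065-188529871, minus) and Tgfb3 (12:87397694-87419991, minus) encode the TGF-β isoforms, and Bmp4 (14:47003195-47010344, minus) encodes BMP4. Inhba (13:16103684-16119044, plus) encodes the βA subunit of activin A, Gdf11 (10:128319351-128328774, minus) the closest relative of myostatin, and Fst (13:115242470-115249159, minus) follistatin. Over the 27 samples, mean levels ran from 4.06 FPKM for Gdf11 to 63.9 FPKM for Tgfb3, with Bmp4 at 37.7 and Fst at 20.8. The range over groups was widest for Bmp4: its highest group mean of FPKM + 1 was 35.3 times its lowest, against 13.4 times for Fst, 8.41 times for Tgfb3 and 3.97 times for Tgfb2.

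**Figure D1:**
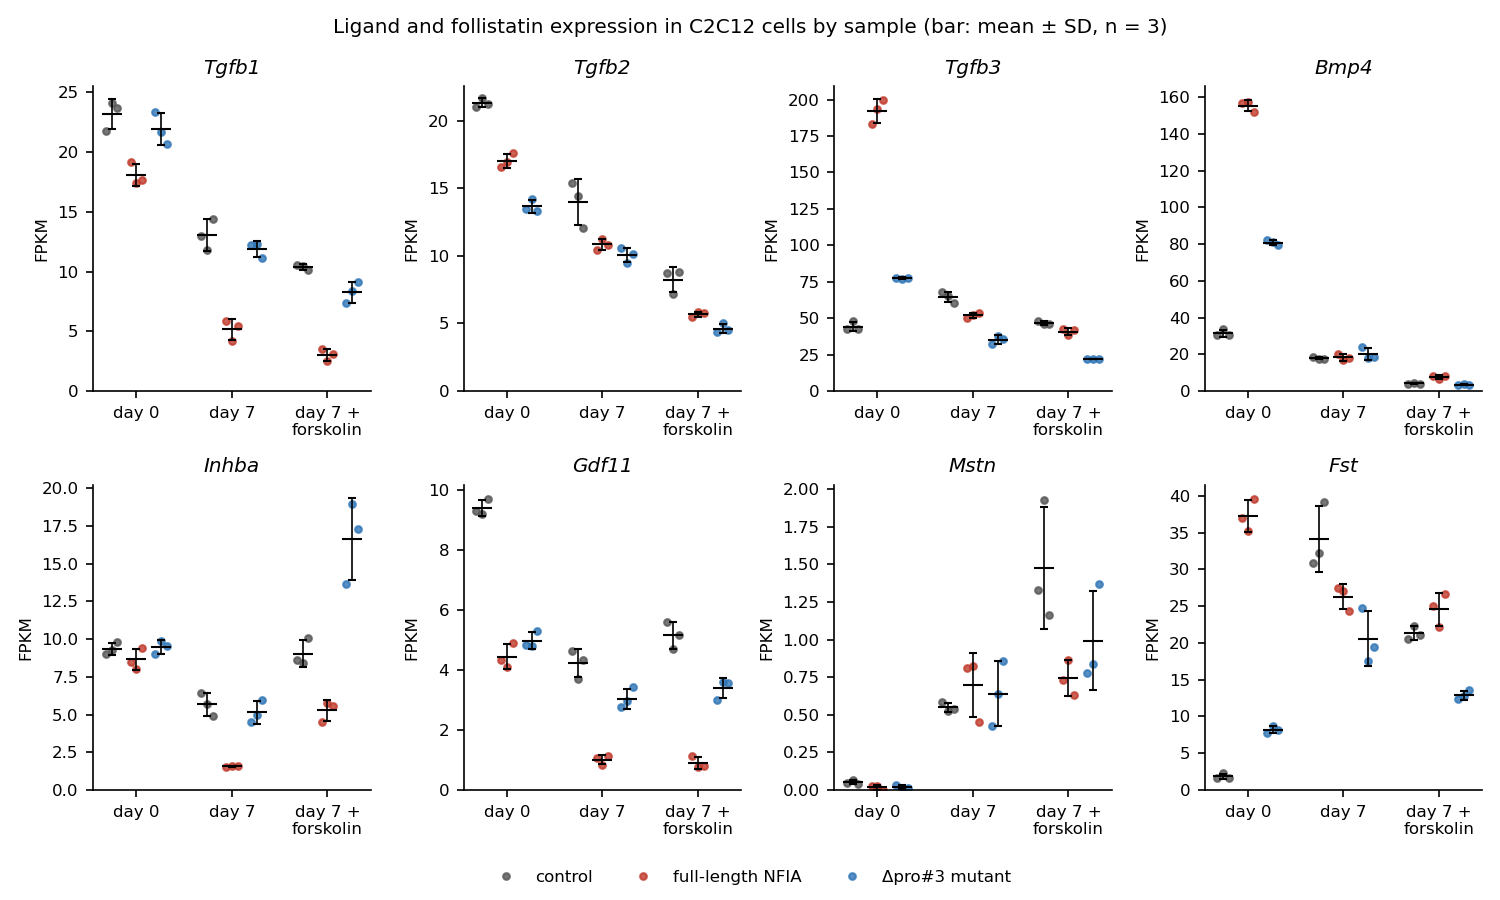
FPKM (linear axes from 0, a scale of its own for each gene) of the 8 detected genes in each sample, by time point and construct. Points are samples, bars the mean ± SD of 3 replicates. At day 0, Tgfb3, Bmp4 and Fst were highest in full-length NFIA-expressing cells, and at day 7 Tgfb3 was lowest in mutant-expressing cells. Inhba was lowest in full-length NFIA-expressing cells at day 7.

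The sequence upstream of the start site is shown for Bmp4, Inhba and Tgfb2, because forskolin lowered Bmp4 and Tgfb2 and raised Inhba in all 3 cell types, as described below. RefSeq promoter sequences (GRCm38.p6) were matched by symbol for 6 of the 10 genes: Tgfb1, Tgfb2, Bmp4, Inhba, Gdf11 and Mstn. The 250 bases before the start are printed from 5′ to 3′ on the strand of the gene. Capitals mark the short cyclic AMP response element motif TGACG (either strand), the nuclear factor I half-site TTGGC (either strand) and the TATA motif TATAAA (sense strand).
Bmp4, chr14:46390670-46390919, minus strand: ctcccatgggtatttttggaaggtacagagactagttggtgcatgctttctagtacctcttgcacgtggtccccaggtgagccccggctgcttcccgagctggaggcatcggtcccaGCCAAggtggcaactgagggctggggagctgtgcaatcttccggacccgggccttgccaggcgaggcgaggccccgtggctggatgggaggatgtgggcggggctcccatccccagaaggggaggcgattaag
Inhba, chr13:16011601-16011850, plus strand: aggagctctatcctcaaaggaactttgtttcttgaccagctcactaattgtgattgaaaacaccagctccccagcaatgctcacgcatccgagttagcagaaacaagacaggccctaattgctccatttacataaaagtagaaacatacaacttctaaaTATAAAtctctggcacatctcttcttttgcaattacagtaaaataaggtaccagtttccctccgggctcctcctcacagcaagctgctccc
Tgfb2, chr1:186705990-186706239, minus strand: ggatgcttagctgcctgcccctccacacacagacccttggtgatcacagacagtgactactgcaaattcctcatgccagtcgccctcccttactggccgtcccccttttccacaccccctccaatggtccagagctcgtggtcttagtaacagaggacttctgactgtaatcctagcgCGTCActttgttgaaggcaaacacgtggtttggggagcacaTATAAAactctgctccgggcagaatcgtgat
The full cyclic AMP response element TGACGTCA was in none of the 6 windows, against 1.55% of all 32851 promoters in the table. Its short form TGACG, which the full form contains, was found in Tgfb2, Gdf11 and Mstn and in 17.8% of all promoters. The nuclear factor I motif, TTGGC and GCCAA with 5 bases of any kind between them, occurred in none of the 6 windows (0.0365% of all promoters). Its half-site TTGGC, on either strand, was in Bmp4, Gdf11 and Mstn and in 41.5% of all promoters. TATAAA was present in Tgfb2, Inhba, Gdf11 and Mstn and in 7.59% of all promoters. The windows differed in base composition, from 38.4% G and C in Mstn to 81.2% in Gdf11, with a median of 52.4% over all promoters. These matches describe letters within 250 bases and no binding.

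To ask how NFIA changed these genes before differentiation, the 3 cell types were compared at day 0. Full-length NFIA raised follistatin, Tgfb3 and Bmp4 together, and lowered Gdf11 and, less, Tgfb1 and Tgfb2. The Δpro#3 mutant raised the same 3 genes by smaller amounts. Of 7 genes tested, 6 passed the test with full-length NFIA (adjusted p under 0.05, limma on log2(FPKM + 1)), in a comparison in which 73.3% of all 12105 genes did. Of these, 3 were higher and 3 lower, against 37.7% and 35.6% of all genes. The 3 that rose were over 3-fold in FPKM + 1, which 5.24% of all genes were in either direction and 2.46% were upwards. With the Δpro#3 mutant, 5 of 7 passed (62.2% of all genes) and 1 was over 3-fold (2.18%). Between the constructs 5 of 7 passed (65.3%), and 1 was over 3-fold (2.05%).

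Fst was at 1.66, 2.26 and 1.65 FPKM in control cells, at 37.0, 35.3 and 39.6 FPKM with full-length NFIA and at 7.75, 8.71 and 8.18 FPKM with the Δpro#3 mutant. The 3 groups did not overlap. On the log2(FPKM + 1) scale, full-length NFIA raised Fst by 3.75 ± 0.08 (SE, adjusted p = 1.8e-11), and the mutant raised it by 1.70 ± 0.08 (adjusted p = 1.84e-08). Bmp4 was at 30.4, 33.7 and 30.4 FPKM in control cells, at 157, 157 and 152 FPKM with full-length NFIA and at 82.1, 80.9 and 79.6 FPKM with the mutant. Full-length NFIA raised it by 2.27 ± 0.04 (log2, SE) and the mutant by 1.34 ± 0.04. Tgfb3 was at 42.5, 47.8 and 42.2 FPKM in control cells, at 183, 193 and 200 FPKM with full-length NFIA and at 77.9, 76.8 and 77.8 FPKM with the mutant. Tgfb3 thus rose by 2.10 ± 0.05 with full-length NFIA and by 0.80 ± 0.05 with the mutant (log2, SE). For all 3 genes the difference between the constructs passed the test, the mutant being lower by 2.05 for Fst, 1.30 for Tgfb3 and 0.93 for Bmp4 on the log2 scale.

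In the control sample with the highest Nfia level, replicate 2, each of these 3 genes was also the highest of its group. So were Tgfb1, Tgfb2 and Mstn, whose means were lower with both constructs, whereas Inhba and Gdf11 were not. Without that sample, the differences of full-length NFIA-expressing from control cells were 3.85 for Fst, 2.32 for Bmp4 and 2.15 for Tgfb3 (log2), and those of the mutant were 1.79, 1.38 and 0.86.

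Gdf11 moved the other way. It was at 9.29, 9.19 and 9.72 FPKM in control cells, at 4.34, 4.10 and 4.91 FPKM with full-length NFIA and at 4.84, 4.80 and 5.30 FPKM with the mutant. The ranges of the constructs overlapped each other and lay below control cells. Gdf11 fell by 0.93 ± 0.06 with full-length NFIA (adjusted p = 8.82e-08) and by 0.80 ± 0.06 with the mutant (adjusted p = 6.34e-07). The difference of 0.14 ± 0.06 between the constructs did not pass the test (adjusted p = 0.061), but passed with voom on fragments (0.20, adjusted p = 0.00743) and without full-length NFIA replicate 3 (0.20, adjusted p = 0.00677). It also passed with replicate number as a block in the limma fit (0.14, adjusted p = 0.0212).

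For Tgfb2 the mutant had the larger effect. It was at 21.0 to 21.7 FPKM in control cells, 16.6 to 17.6 FPKM with full-length NFIA and 13.4 to 14.2 FPKM with the mutant, without overlap. It fell by 0.31 ± 0.04 and 0.61 ± 0.04 respectively (log2, SE), and the mutant was lower than full-length NFIA by a further 0.30 ± 0.04 (adjusted p = 2.85e-05). Tgfb1 fell with full-length NFIA, from 23.2 ± 1.3 to 18.1 ± 0.9 FPKM (SD, n = 3), a log2 difference of -0.34 ± 0.05. With the mutant it was at 21.9 ± 1.4 FPKM, overlapping control cells (-0.08 ± 0.05, adjusted p = 0.232), but scaled to Rplp0 the difference passed (-0.34, adjusted p = 0.00062). Inhba was at 9.35, 8.64 and 9.47 FPKM in control, full-length NFIA-expressing and mutant-expressing cells, and neither difference from control cells passed the test (adjusted p = 0.118 and 0.813). That of full-length NFIA passed without its replicate 3 (-0.16, adjusted p = 0.0149) and with voom on fragments (-0.14, adjusted p = 0.0186), and that of the mutant passed downwards with scaling to Rplp0 (-0.23, adjusted p = 0.0153).

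Mstn, under the filter at day 0, rested on 11 fragments in control cells and on 4 with each construct. Its samples in control cells (0.0425 to 0.0679 FPKM) did not overlap those of either construct, with exact permutation p = 0.1 for each, the smallest that 3 against 3 samples allow.

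Muscle markers were lower and adipocyte markers higher with both constructs at day 0. The adipocyte sum was 40.0 to 48.5 FPKM in control, 432 to 459 with full-length NFIA and 318 to 335 with the mutant. Their part in the differences above was not tested. When samples were scaled to Rplp0, the reference gene of the study's qPCR, Fst with the mutant was no longer over 3-fold, and the difference of Tgfb1 between the constructs (0.26 ± 0.05) came to 0.079 (adjusted p = 0.316).

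**Figure D2:**
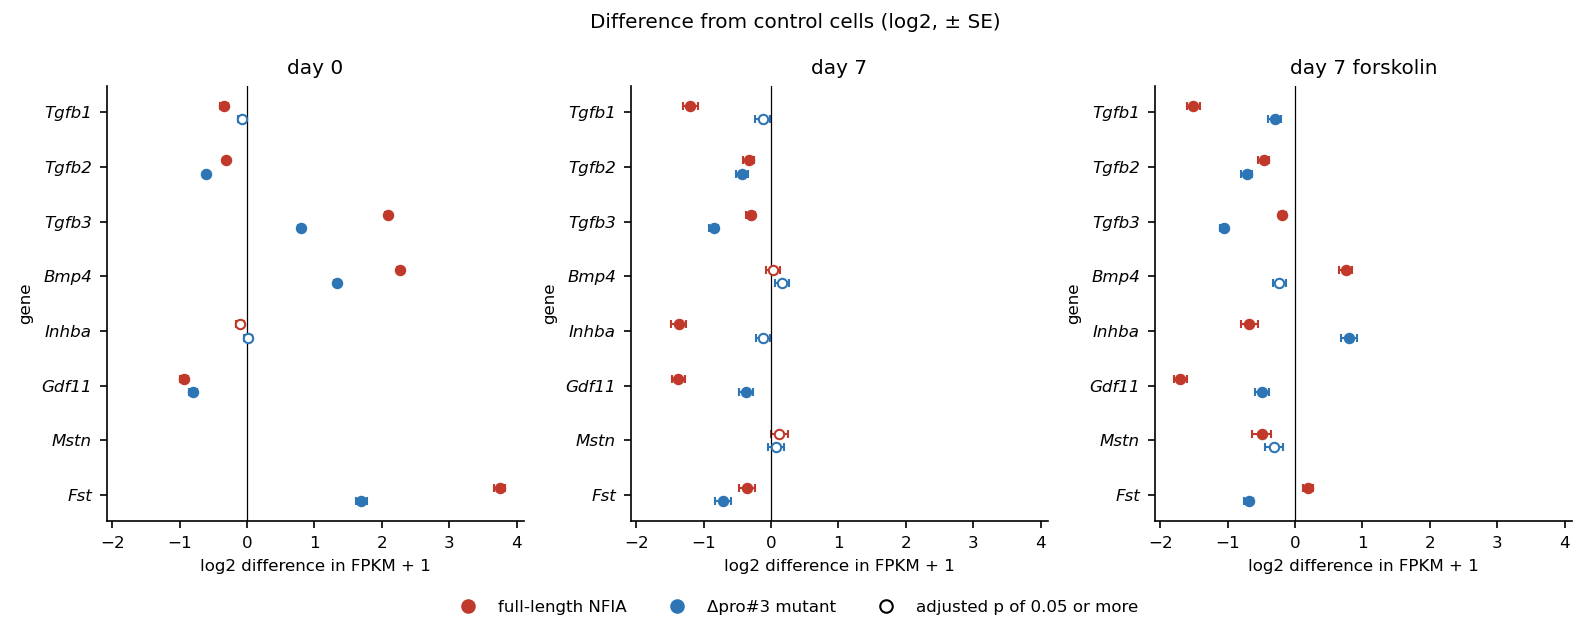
Log2 difference in FPKM + 1 from control cells (points, bars ± SE of the fit) for each construct at day 0, day 7 and day 7 with forskolin. Filled points passed the test at an adjusted p under 0.05. Fst, Bmp4 and Tgfb3 stood to the right of 0 at day 0, whereas at day 7 the lowest points were Gdf11, Inhba and Tgfb1 with full-length NFIA. Mstn was not tested at day 0.

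At day 7, after differentiation, the picture was different. With full-length NFIA no gene passed the test upwards against control cells, and Inhba, Gdf11 and Tgfb1 were the most reduced, whereas with the Δpro#3 mutant neither Inhba nor Tgfb1 passed the test against control cells. Of 8 genes tested, 6 were lower with full-length NFIA and 2 did not pass, where 72.4% of all genes passed and 41.1% were lower. The mutant lowered 4 of 8 genes, where 48.8% of all genes passed and 27.5% were lower. Between the constructs 5 of 8 passed (63.7% of all genes), Inhba, Tgfb1 and Gdf11 being higher and Tgfb3 and Fst lower with the mutant. None was over 3-fold in FPKM + 1 in either comparison (8.17% and 1.44% of all genes). The added 1 sets this count for full-length NFIA: mean FPKM in control cells was 4.16 times as high for Gdf11 and 3.62 times for Inhba, and 2 genes were over 3-fold with a pseudocount of 0.1.

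Inhba was at 6.44, 5.67 and 4.89 FPKM in control cells, at 1.54, 1.57 and 1.59 FPKM with full-length NFIA and at 4.49, 4.98 and 5.97 FPKM with the mutant. Full-length NFIA samples lay far below both other groups, which overlapped. The log2 difference from control cells was -1.37 ± 0.11 with full-length NFIA (adjusted p = 1.03e-06) and -0.12 ± 0.11 with the mutant (adjusted p = 0.38). Mutant-expressing cells were 1.25 ± 0.11 above full-length NFIA-expressing cells (adjusted p = 2.99e-06).

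Tgfb1 showed the same order. It was at 13.0, 11.8 and 14.4 FPKM in control cells, at 5.86, 4.15 and 5.47 FPKM with full-length NFIA and at 12.2, 12.3 and 11.2 FPKM with the mutant. Full-length NFIA lowered it by 1.20 ± 0.11 (log2, SE), and the mutant differed from control cells by -0.12 ± 0.11 (adjusted p = 0.382).

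Gdf11 was at 4.64, 3.71 and 4.34 FPKM in control cells, at 1.08, 0.832 and 1.14 FPKM with full-length NFIA and at 2.77, 2.95 and 3.42 FPKM with the mutant. The groups were apart from each other. Full-length NFIA lowered it by 1.37 ± 0.10 and the mutant by 0.37 ± 0.10 (log2, SE). The latter lost its call without control replicate 1 (-0.31, adjusted p = 0.0508).

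Tgfb3 and Fst, which full-length NFIA had raised at day 0, were both lower than in control cells at day 7. Tgfb3 was at 60.6 to 67.7 FPKM for control cells, 50.2 to 53.8 FPKM for full-length NFIA and 32.3 to 37.9 FPKM for the mutant, with no overlap. It differed from control cells by -0.30 ± 0.07 and -0.85 ± 0.07 (log2, SE), the mutant being the lower by 0.55 ± 0.07 (adjusted p = 4.76e-05). Fst was at 30.9 to 39.2 FPKM for control cells, 24.4 to 27.5 FPKM for full-length NFIA and 17.5 to 24.8 FPKM for the mutant. Its fall with the mutant was 0.71 ± 0.12 (adjusted p = 0.00104), and 0.85 without mutant replicate 1, the sample with the highest adipocyte sum of its group. Its difference with full-length NFIA, -0.36 ± 0.12 (adjusted p = 0.0232), did not pass without control replicate 3 (-0.26, adjusted p = 0.0955) or full-length NFIA replicate 3 (-0.31, adjusted p = 0.0795).
Between the constructs, Fst was lower with the mutant by 0.35 ± 0.12 (adjusted p = 0.0288). That call was lost without full-length NFIA replicate 1 (-0.32, adjusted p = 0.0815) or 2 (-0.33, adjusted p = 0.0751), and without mutant replicate 2 (-0.25, adjusted p = 0.11) or 3 (-0.32, adjusted p = 0.08).

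Tgfb2 was lower by 0.33 ± 0.08 with full-length NFIA and by 0.43 ± 0.08 with the mutant (log2, SE). For Bmp4 no difference passed the test at day 7: its means ± SD were 17.9 ± 0.5 FPKM for control cells, 18.3 ± 1.7 FPKM for full-length NFIA and 20.3 ± 3.3 FPKM for the mutant (adjusted p = 0.807 and 0.21 against control cells). Mstn was at 0.453 to 0.826 FPKM with full-length NFIA and at 0.527 to 0.582 FPKM in control cells (adjusted p = 0.381). Muscle markers summed to 6781 to 7836 FPKM for control cells, 1294 to 1753 FPKM for full-length NFIA and 7898 to 8200 FPKM for the mutant at day 7, and their part in these differences was not tested. Scaled to Rplp0, 3 of 8 genes were past the test with full-length NFIA, the calls of Tgfb2 (-0.17, adjusted p = 0.139), Tgfb3 (-0.13, adjusted p = 0.0899) and Fst (-0.19, adjusted p = 0.28) being lost.

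Change over the 7 days was tested within each cell type. All 7 genes tested passed in each of the 3 cell types, where 78.7% of all genes passed in control, 79.7% in full-length NFIA-expressing and 79.5% in mutant-expressing cells. In control cells Fst rose by 3.62 ± 0.11 (log2, SE), from 1.86 ± 0.35 to 34.1 ± 4.4 FPKM (SD, n = 3), and Tgfb3 rose by 0.54 ± 0.06, while the other 5 genes fell, where 36% of all genes rose and 42.7% fell. With full-length NFIA all 7 genes fell (46.5% of all genes), 4 of them over 3-fold (4.71% of all genes): Bmp4, Inhba, Tgfb3 and Tgfb1. With scaling to Rplp0, 6 of 7 passed, the call of Fst being lost (-0.094, adjusted p = 0.534), and 2 were over 3-fold, while median-ratio scaling left 3 over 3-fold. Bmp4 showed the largest fall, by 3.02 ± 0.08, from 155 ± 3 to 18.3 ± 1.7 FPKM. In mutant-expressing cells Fst rose by 1.21 ± 0.11, Bmp4 fell by 1.95 ± 0.08, and Tgfb3 fell by 1.11 ± 0.06. Tgfb2 fell in all 3 cell types, by 0.58, 0.61 and 0.41 in control, full-length NFIA-expressing and mutant-expressing cells, but for the mutant the direction turned when samples were scaled to Rplp0 (0.011, adjusted p = 0.908).

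The difference of these changes between cell types was tested with an interaction term. It passed for 6 of 7 genes between full-length NFIA and control cells (71.2% of all genes), for 4 of 7 between the mutant and control cells (44.7%) and for 6 of 7 between the constructs (63.5%). Fst differed most: its change with full-length NFIA minus that in control cells was -4.11 ± 0.16, and with the mutant it was -2.41 ± 0.16. Day 0 samples are shared by these terms and by the comparisons at day 0, so they are no separate evidence. Mstn was higher at day 7 than at day 0 in every cell type without overlap, on 65 against 11 fragments in control, 81 against 4 in full-length NFIA-expressing and 92 against 4 in mutant-expressing cells, each with an exact permutation p = 0.1, the smallest possible.

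**Figure D3:**
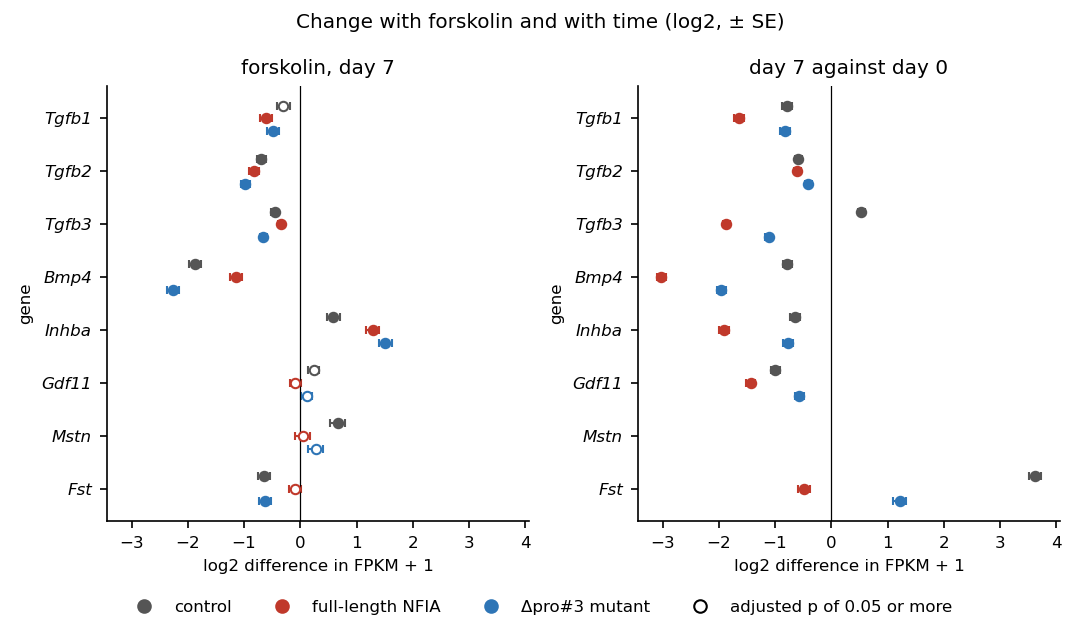
Log2 change in FPKM + 1 with 4 h of forskolin at day 7 and from day 0 to day 7 (points, bars ± SE of the fit), within each cell type. Filled points passed the test at an adjusted p under 0.05. With forskolin, Bmp4 was to the left and Inhba to the right of 0 in every cell type. Over time, Fst was to the right of 0 in control and mutant-expressing cells and to the left in full-length NFIA-expressing cells.

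Forskolin was used to raise cyclic AMP in the day 7 cells. It lowered Bmp4, Tgfb2 and Tgfb3 and raised Inhba in all 3 cell types. The test was passed by 6 of 8 genes in control cells (20.5% of all genes), 5 of 8 with full-length NFIA (55.4%) and 6 of 8 with the mutant (35.8%). Bmp4 was the gene over 3-fold in FPKM + 1 in control and in mutant-expressing cells, where 0.392% and 0.588% of all genes were. Without mutant replicate 3 at day 7 or mutant replicate 1 after forskolin, 2 genes were over 3-fold in mutant-expressing cells.

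Bmp4 went from 18.4, 17.6 and 17.6 FPKM to 3.94, 4.63 and 4.01 FPKM in control cells. With full-length NFIA it went from 20.3, 16.9 and 17.8 to 8.41, 6.66 and 8.21 FPKM, and with the mutant from 24.1, 18.2 and 18.6 to 3.15, 3.87 and 3.27 FPKM. No treated sample reached an untreated sample of its cell type. The fall was 1.86 ± 0.11 (log2, SE) in control, 1.14 ± 0.11 in full-length NFIA-expressing and 2.26 ± 0.11 in mutant-expressing cells. It was smaller with full-length NFIA than in control cells by 0.72 ± 0.15 (adjusted p = 0.00166 for the interaction, passed by 30.6% of all genes) and than with the mutant by 1.12 ± 0.15 (adjusted p = 6.5e-05, passed by 21.7%). The difference between the mutant and control cells, -0.39 ± 0.15, did not pass (adjusted p = 0.15, passed by 4.97% of all genes).

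Inhba went from 6.44, 5.67 and 4.89 FPKM to 8.61, 8.40 and 10.0 FPKM in control cells. With full-length NFIA it went from 1.54, 1.57 and 1.59 to 4.49, 5.76 and 5.60 FPKM, and with the mutant from 4.49, 4.98 and 5.97 to 13.6, 18.9 and 17.3 FPKM. Treated and untreated samples did not overlap in any cell type. The rise was 0.59 ± 0.12 (log2, SE) in control, 1.29 ± 0.12 in full-length NFIA-expressing and 1.51 ± 0.12 in mutant-expressing cells. Without the added 1, mean FPKM rose 1.59-fold in control, 3.37-fold in full-length NFIA-expressing and 3.23-fold in mutant-expressing cells. It was larger than in control cells by 0.70 ± 0.17 with full-length NFIA (adjusted p = 0.00571) and by 0.92 ± 0.17 with the mutant (adjusted p = 0.00404). The difference between the constructs was 0.23 ± 0.17 (adjusted p = 0.375).

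Tgfb2 fell with forskolin by 0.69, 0.82 and 0.98 in control, full-length NFIA-expressing and mutant-expressing cells (log2, each SE 0.08), and no interaction passed the test. Tgfb3 fell by 0.46, 0.34 and 0.66 (each SE 0.06), the difference between the 2 constructs being 0.31 ± 0.08 (adjusted p = 0.0124). Tgfb1 fell by 0.61 ± 0.11 with full-length NFIA and by 0.48 ± 0.11 with the mutant. In control cells it went from 13.1 to 10.4 FPKM (-0.30 ± 0.11, adjusted p = 0.0624), a difference that passed in some alternatives, among them without control replicate 2 at day 7 (-0.37, adjusted p = 0.0495). Gdf11 did not pass in any cell type.

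Fst fell with forskolin in control cells, by 0.65 ± 0.11, and in mutant-expressing cells, by 0.62 ± 0.11, whereas with full-length NFIA it went from 26.3 ± 1.7 to 24.6 ± 2.2 FPKM (SD, n = 3; -0.10 ± 0.11, adjusted p = 0.47). The interaction between full-length NFIA and control cells was 0.55 ± 0.15 (adjusted p = 0.0114). That between the constructs, -0.53 ± 0.15 (adjusted p = 0.019), was lost without full-length NFIA replicate 3 at day 7 (-0.48, adjusted p = 0.0508) or after forskolin (-0.47, adjusted p = 0.051).

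Mstn rose with forskolin in control cells, from 0.582, 0.527 and 0.536 to 1.33, 1.93 and 1.16 FPKM, on 65 and 216 fragments. Its log2 rise was 0.66 ± 0.14 (adjusted p = 0.00206), and with full-length NFIA the difference was 0.04 ± 0.14 (adjusted p = 0.797). The interaction of -0.62 ± 0.19 (adjusted p = 0.0222) was lost without full-length NFIA replicate 1 (-0.57, adjusted p = 0.0531) or 2 at day 7 (-0.56, adjusted p = 0.0527), control replicate 2 after forskolin (-0.49, adjusted p = 0.0643) or full-length NFIA replicate 3 after forskolin (-0.57, adjusted p = 0.0525). With the mutant, Mstn went from 0.425, 0.640 and 0.856 to 0.775, 0.834 and 1.37 FPKM, with overlap. That log2 difference of 0.28 did not pass, nor did either interaction with the mutant.

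After forskolin, the 8 genes with full-length NFIA all differed from control cells (72.5% of all genes), 2 being higher (25.5% of all genes) and 6 lower (47%). Gdf11 was the most reduced, at 1.13, 0.764 and 0.789 FPKM against 5.60, 4.72 and 5.16 FPKM (-1.70 ± 0.10, log2, SE), and was the gene over 3-fold (8.02% of all genes). Without full-length NFIA replicate 1, 2 genes were over 3-fold, and with median-ratio scaling none was (Gdf11 at -1.58). Tgfb1 was lower by 1.51 ± 0.10, Inhba by 0.68 ± 0.12 and Mstn by 0.50 ± 0.14, while Bmp4 was higher by 0.75 ± 0.10. Tgfb3 was lower by 0.19 ± 0.05, but this difference disappeared with median-ratio scaling (-0.0041, adjusted p = 0.952) and turned to 0.0027 (adjusted p = 0.983) with scaling to Rplp0. Fst was higher by 0.19 ± 0.07 (adjusted p = 0.0308), a call lost without control replicate 1 (0.17, adjusted p = 0.105) or 3 (0.19, adjusted p = 0.0756), and without full-length NFIA replicate 1 (0.18, adjusted p = 0.0661) or 3 (0.14, adjusted p = 0.125).

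For Inhba the constructs stood on opposite sides of control cells after forskolin: 4.49 to 5.76 FPKM with full-length NFIA, 8.40 to 10.0 FPKM in control cells and 13.6 to 18.9 FPKM with the mutant, without overlap. The mutant was higher than control cells by 0.81 ± 0.12 (log2, SE, adjusted p = 0.000337) and than full-length NFIA by 1.48 ± 0.12 (adjusted p = 1.33e-06). Fst also passed on opposite sides, higher with full-length NFIA and lower with the mutant. Bmp4 was at 3.15 to 3.87 FPKM with the mutant and 3.94 to 4.63 FPKM in control cells, a difference of -0.23 ± 0.10 that did not pass (adjusted p = 0.0803). It passed without mutant replicate 2 (-0.30, adjusted p = 0.0458) and with all 27 samples in 1 fit (adjusted p = 0.0359). In all, 6 of 8 genes passed between mutant and control cells (46.6% of all genes) and 7 of 8 between the constructs (66.2%). Among them were Tgfb3, lower with the mutant than in control cells by 1.05 ± 0.05, Tgfb2, lower by 0.72 ± 0.08, and Fst, lower by 0.69 ± 0.07. Tgfb1 was lower with the mutant than in control cells by 0.30 ± 0.10 (adjusted p = 0.0263), but the adjusted p was 0.0531 to 0.0909 without control replicate 1, 2 or 3 or mutant replicate 1 or 2. Between the constructs, Tgfb2 was lower with the mutant by 0.25 ± 0.08 (adjusted p = 0.0189), which was 0.0553 to 0.0574 without full-length NFIA replicate 2 or mutant replicate 1 or 3.

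Summed over the 9 ligands, the level was 139 ± 6 FPKM for control cells, 396 ± 7 FPKM for full-length NFIA and 208 ± 2 FPKM for the mutant at day 0 (SD, n = 3). Tgfb3 and Bmp4 made up 54.4% of the sum in control cells, 87.8% with full-length NFIA and 76.0% with the mutant. At day 7 the sums were 120 ± 6, 89.6 ± 1.8 and 86.4 ± 0.5 FPKM, and after forskolin 85.2 ± 1.7, 64.2 ± 3.1 and 59.3 ± 4.4 FPKM. The ratio of Fst to the sum of Inhba, Mstn and Gdf11, which follistatin binds, was 0.0990 ± 0.0200 in control cells at day 0, 2.85 ± 0.07 with full-length NFIA and 0.568 ± 0.023 with the mutant. At day 7 it was 3.31 ± 0.68 in control and 8.02 ± 0.36 in full-length NFIA-expressing cells, and 2.39 ± 0.73 in mutant-expressing cells. After forskolin it was 1.37 ± 0.10, 3.58 ± 0.50 and 0.622 ± 0.083 in control, full-length NFIA-expressing and mutant-expressing cells. These ratios leave out Inhbb, the other activin subunit expressed here. With Inhbb added to the ligands, a choice made after seeing the data, the ratios at day 7 were 0.740 ± 0.174, 2.47 ± 0.25 and 1.06 ± 0.27 in the same order, so that control cells were below instead of above the mutant, with overlapping samples either way. At day 0 they were then 0.0359 ± 0.0072, 2.08 ± 0.03 and 0.149 ± 0.008, and after forskolin 0.564 ± 0.089, 2.95 ± 0.36 and 0.460 ± 0.085. After forskolin, samples of control cells (0.512 to 0.667) and of the mutant (0.389 to 0.554) overlapped with Inhbb added. Without Inhbb they did not (1.29 to 1.49 and 0.545 to 0.710). With either sum, full-length NFIA had the highest ratio at each time point. These are ratios of transcripts and do not measure free ligand.

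**Figure D4:**
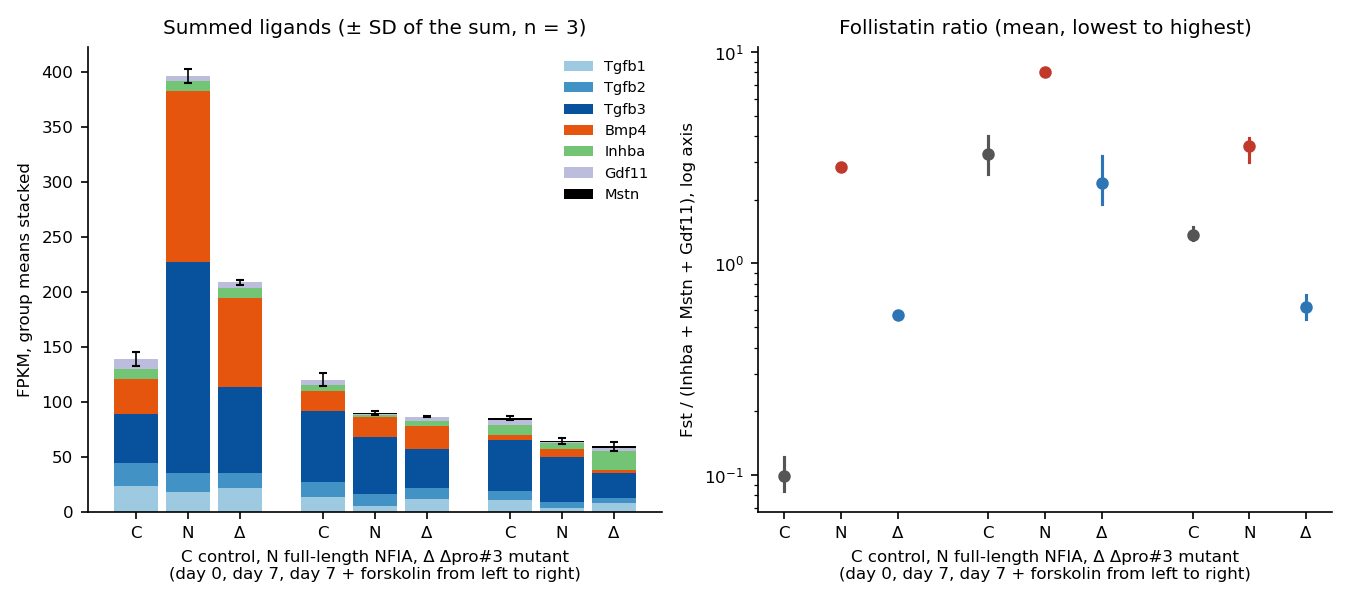
Left, stacked group means of the 7 detected ligands in FPKM with the SD of the sum (n = 3). Right, the ratio of Fst to Inhba + Mstn + Gdf11 on a log axis, with points for means and lines from the lowest to the highest sample. The day 0 bar of full-length NFIA reached 396 FPKM against 139 FPKM in control cells. The ratio, which leaves out Inhbb, was highest with full-length NFIA at each time point.

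The remaining genes of the pathway were described with lists by role, each by its counts and its median log2 difference beside that of all genes tested. At day 0, the medians over all genes were within 0.01 of 0, and the shares of all genes were 37.7% higher and 35.6% lower with full-length NFIA (73.3% in all) and 32.5% and 29.7% with the mutant (62.2% in all). List counts near these shares are no result about a list. Of 13 tested target genes, 8 were higher and 3 lower with full-length NFIA, with a median of 1.16 and 4 upwards over 3-fold (2.46% of all genes). The 11 that passed in either direction lie near the share of all genes. With the mutant 5 were higher and 5 lower, with a median of 0.01. Id2, a target of BMP signals that inhibits basic helix-loop-helix factors, was at 21.0 ± 0.3 FPKM for control cells, 72.6 ± 3.4 FPKM for full-length NFIA and 69.2 ± 0.3 FPKM for the mutant (SD, n = 3). Ltbp2, listed both as a target and as a latent TGF-β binding protein, was at 17.7 ± 1.4, 86.8 ± 4.0 and 10.7 ± 0.6 FPKM. Thus Id2 was raised by both constructs and Ltbp2 by full-length NFIA, the mutant being lower than full-length NFIA by 2.91 ± 0.06 for Ltbp2 (log2, SE).

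Of the 8 Smad genes, 4 were higher and 4 lower with full-length NFIA at day 0, with a median of -0.0036, against 73.3% of all genes past the test. The 2 over 3-fold (5.24% of all genes) were Smad6, an inhibitory Smad, which rose by 2.70 ± 0.12, and Smad9, a BMP-regulated Smad, which rose by 2.25 ± 0.07. Smad6 was at 1.56 ± 0.47, 15.5 ± 1.7 and 6.35 ± 0.25 FPKM in control, full-length NFIA-expressing and mutant-expressing cells. Of 12 receptors and co-receptors tested, 4 were higher and 6 lower with full-length NFIA (median -0.13), and the counts were equal for the mutant (median -0.12), where 73.3% and 62.2% of all genes passed. Acvrl1, which encodes the type I receptor ALK1, rose by 2.08 ± 0.07, from 0.0485 to 3.45 FPKM.

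Of 13 antagonists and latency proteins, 6 were higher and 5 lower with full-length NFIA at day 0 (median 0.01), where 73.3% of all genes passed. Grem1, which encodes the BMP antagonist gremlin-1, fell from 50.5 ± 1.5 to 12.6 ± 0.5 FPKM with full-length NFIA, and was at 50.1 ± 1.6 FPKM with the mutant. At day 7 it was at 31.5 ± 7.9, 1.04 ± 0.63 and 24.8 ± 5.0 FPKM, the difference between full-length NFIA and control cells being -4.01 ± 0.23. Ltbp1 rose by 1.64 ± 0.04 with full-length NFIA at day 0. At day 7, 5 of 13 in this list were higher and 7 lower with full-length NFIA (median -0.42, against -0.08 over all genes), where 72.4% of all genes passed. Ltbp3 rose from 37.6 ± 1.2 to 153 ± 3 FPKM, and Chrdl1, a BMP antagonist related to chordin, rose by 1.96 ± 0.10 to 6.27 ± 0.67 FPKM.

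Among 24 further ligands and inhibin subunits, 3 were tested at day 0 and 7 at day 7. Inhbb, the βB subunit of activins, was at 33.1 ± 0.5 FPKM for control cells, 4.83 ± 0.18 FPKM for full-length NFIA and 40.6 ± 0.9 FPKM for the mutant at day 0. At day 7 it was at 36.4 ± 4.1, 7.42 ± 0.54 and 10.8 ± 0.5 FPKM, so that full-length NFIA lowered it at both times and the mutant at day 7 (-1.66 ± 0.08). Of the 7 genes at day 7, 5 were lower and none higher with full-length NFIA (median -1.22; 72.4% of all genes passed, 41.1% lower), among them Gdf5 (-2.11 ± 0.12) and Bmp8a (-2.04 ± 0.15). Of 7 tested convertases and activators, 2 were higher and 4 lower with full-length NFIA at day 0 (median -0.24), where 73.3% of all genes passed. Pcsk6, a proprotein convertase, was at 0.583 ± 0.186 FPKM for control cells, 17.0 ± 0.9 FPKM for full-length NFIA and 1.66 ± 0.14 FPKM for the mutant, and at day 7 at 0.118 ± 0.034, 13.2 ± 0.7 and 1.25 ± 0.39 FPKM.

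Of 13 target genes at day 7, 7 were lower and 3 higher with full-length NFIA (median -0.40), where 41.1% of all genes were lower and 31.3% higher. With the mutant 8 were lower and 3 higher (median -0.32, against -0.04 over all genes), where 27.5% of all genes were lower and 21.3% higher. Postn, which encodes the matrix protein periostin, was at 239 ± 15 FPKM for control cells, 28.1 ± 2.3 FPKM for full-length NFIA and 91.9 ± 17 FPKM for the mutant. Ctgf, a matricellular target of TGF-β, was at 67.6 ± 0.3, 12.8 ± 1.4 and 191 ± 7 FPKM, and forskolin lowered it by 3.11, 2.11 and 3.07 in control, full-length NFIA-expressing and mutant-expressing cells (log2, each SE 0.11). Thbs1, which encodes the latent TGF-β activator thrombospondin-1, fell with forskolin by 2.57 ± 0.11 in control and by 2.43 ± 0.11 in mutant-expressing cells. With full-length NFIA it was at 93.5 ± 0.7 and 86.9 ± 9.2 FPKM before and after forskolin.

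Genes whose pattern over the 9 group means was most like that of a ligand were sought among 3414 genes by Pearson's r of log2(FPKM + 1). The values are descriptions over 9 groups that share constructs and time points. Most like Tgfb1 were BC028528 and Dnase2a (r of 0.994 and 0.993). Most like Bmp4 were 3300005D01Rik, Srgap3 and Dzip1l (0.984, 0.981 and 0.971), and most like Gdf11 were Cfap69, Cnn3 and Renbp (0.991, 0.978 and 0.978). For Inhba they were Pdpn, Plaur and Brinp3 (0.954, 0.952 and 0.934), for Tgfb3 Rad51c, Vegfd and Gprin3 (0.958, 0.954 and 0.938), for Tgfb2 Gatd1, Rgl1 and Plekhh2 (0.948, 0.943 and 0.941), and for Fst Ablim3, Rnd1 and Emb (0.949, 0.916 and 0.910). None of these was another of the 10 genes.

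The order of the group means shows where groups were alike. For Bmp4 and Tgfb3, 2 of the 8 neighbouring pairs overlapped in their samples. Bmp4 ran from 155 FPKM with full-length NFIA at day 0 down to 3.43 FPKM with the mutant after forskolin, and its overlapping neighbours were the 3 untreated day 7 groups. Tgfb3 ran from 192 FPKM with full-length NFIA at day 0 to 22.0 FPKM with the mutant after forskolin, control cells at day 0 overlapping with control and full-length NFIA-expressing cells after forskolin. Tgfb1 ran from 23.2 FPKM in control cells at day 0 to 3.02 FPKM with full-length NFIA after forskolin, and Tgfb2 from 21.3 FPKM in control cells at day 0 to 4.62 FPKM with the mutant after forskolin. Fst ran from 37.3 FPKM with full-length NFIA at day 0, which overlapped control cells at day 7, to 1.86 FPKM in control cells at day 0. For Inhba and Gdf11, 5 of the 8 neighbouring pairs overlapped, and for Mstn 6.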

How the data were processed

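Polyadenylated RNA of 27 C2C12 samples was sequenced from stranded libraries in triplicate. Nothing in the sources says that replicates came from separate cultures, so p-values measure the spread between these samples, which may be technical. The authors aligned paired reads to mm9 with STAR 2.5.3a, kept uniquely mapped reads, took matched-strand gene counts and deposited FPKM values per gene, which were not rescaled here. All values were whole multiples of the value of 1 fragment (tolerance 0.001), which gave the fragments per gene and the depth of 9567769 to 27230965 fragments. This depth leaves genes below 0.5 FPKM on few fragments.

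Groups and replicates were taken from the deposited labels. The 10 genes and the pathway and marker lists were chosen with earlier results of these data known. Expression was compared on log2(FPKM + 1) with limma 3.58.1 (R 4.3.3) with moderated variances that follow the mean, in 1 fit per time point (9 samples) and in fits of 18 samples for forskolin and for time, over genes whose mean FPKM reached 0.5. Differences are therefore on the log2(FPKM + 1) scale, which understates changes of low genes. Tests were 2-sided, and p-values were adjusted by the Benjamini-Hochberg method over all genes of a comparison. A difference was called at an adjusted p under 0.05, and a second rule also asked for more than 3-fold in FPKM + 1, the threshold of the study's heat maps. Mstn at day 0 was compared by exact permutation tests of FPKM, whose smallest p is 0.1. All 10 genes are named, as well as from each pathway list at most the 3 largest changes per comparison of constructs at day 0 or day 7, or per forskolin response, over 3-fold in genes whose mean FPKM reached 1, and the 3 genes most like each gene. Some genes that this rule names are not reported here. Promoter windows came from RefSeq (GRCm38.p6) and gene coordinates from GENCODE on NCBIM37. Python 3.11.15 and matplotlib 3.10.9 were used.

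The steps were tested on simulated data for full-length NFIA against control cells at day 0 (12110 genes). In these, 200 genes were changed by a log2 of 2 up or down, with the same fixed spread for all genes. Of the changed genes, 100% were recovered, and 212 were called, 12 of them unchanged. Recovery of smaller changes, such as many of those above, was not simulated. The main fits did not pair samples by replicate number. Alternatives were another pseudocount, scaling, filter, fit and sample set, whose effect is given at the end.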

Additional observations from a re-analysis of the deposited data

Results flagged for a closer look

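Differences between cell types in a change were singled out where the interaction term of limma passed at an adjusted p under 0.05. All values are differences in log2(FPKM + 1), and no explanation was weighed. Forskolin changed 4 of 8 genes differently with full-length NFIA than in control cells, where 30.6% of all genes passed. The response was higher by 0.72 for Bmp4, by 0.70 for Inhba and by 0.55 for Fst, and lower for Mstn (-0.62). Against control cells, the mutant differed in Inhba (0.92), 1 of 8 genes (4.97% of all genes). Between the constructs, the response of the mutant was lower for Tgfb3 (-0.31), Bmp4 (-1.12) and Fst (-0.53), 3 of 8 genes (21.7% of all genes).

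From day 0 to day 7, the change with full-length NFIA differed from that in control cells for Tgfb1 (-0.86), Tgfb3 (-2.40), Bmp4 (-2.24), Inhba (-1.27), Gdf11 (-0.44) and Fst (-4.11). With the mutant it differed from control cells for Tgfb3 (-1.65), Bmp4 (-1.17), Gdf11 (0.43) and Fst (-2.41). The change with the mutant was higher than with full-length NFIA for Tgfb1 (0.81), Tgfb3 (0.75), Bmp4 (1.07), Inhba (1.13), Gdf11 (0.87) and Fst (1.70). For Tgfb3 the mutant was above control cells at day 0 (0.80) and below them at day 7 (-0.85).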

How the results depend on the processing

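Of 159 log2 differences, 1524 of 1557 values under alternatives that kept all samples stayed on their side of the threshold. Another 15 lost and 15 gained the call, and 3 changed sign with a call before or after. With 1 sample left out, 2201 of 2241 values stayed, 25 lost and 15 gained the call. None with a call before or after then changed sign. Differences without a call before and after counted as staying whatever their sign. Between the constructs at day 7, Mstn went from -0.049 to 0.048 without mutant replicate 1. The cause was not tested.

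The 3 changes of sign with a call before or after came with scaling to Rplp0: Inhba, mutant against control cells at day 0 (-0.23), Tgfb3, full-length NFIA against control cells after forskolin (0.0027), and Tgfb2 over time with the mutant (0.011). That scaling moved the median over all genes by up to 0.378 (log2), for the change over time with the mutant, and median-ratio scaling by up to 0.163, after forskolin with full-length NFIA against control cells. The split of calls moved for the mutant at day 0, from 3 higher and 2 lower to 3 and 4 against control cells, and from 1 and 4 to 0 and 4 against full-length NFIA (Rplp0), and for the difference of change over time between mutant and control cells from 1 and 3 to 2 and 3 (both scalings).

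Counts past the test moved from 6 to 3 for full-length NFIA against control cells at day 7 (Rplp0), and from 5 to 3 between the constructs at day 7 with a minimum mean FPKM of 5, which leaves fewer genes tested. Counts over 3-fold with a pseudocount of 0.1 and with voom on fragments, respectively, were 2 and 2 (from 0) for full-length NFIA against control cells at day 7, 1 and 2 (from 0) between the constructs at day 7, 2 and 2 (from 1) for full-length NFIA against control cells after forskolin, 2 and 2 (from 0) between the constructs after forskolin, 1 and 1 (from 0) for the forskolin response with full-length NFIA, and 2 and 2 (from 1) for that with the mutant. Full-length NFIA against control cells after forskolin came to 0 with median-ratio scaling and with the minimum of 5. With Rplp0 the mutant at day 0 came to 0 (from 1) and full-length NFIA over time to 2 (from 4). The difference of change over time between mutant and control cells came to 1 (from 2) with both scalings. With 1 sample left out, counts over 3-fold ranged from 1 to 2 for full-length NFIA against control cells after forskolin, 0 to 1 between the constructs after forskolin, 1 to 2 for the forskolin response of the mutant and 0 to 1 for the difference of change over time between the constructs (0 without mutant replicate 1 at day 7).

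Same-numbered samples did not all deviate together: their mean correlation ran from -0.0314 to 0.0177 over the fits. In the forskolin fit, 12 of 45 pairs were over 0.1 (-0.179 to 0.358). In no fit did every sample correlate best with its own number (5 of 9 at day 0). Pairing by number was thus not shown, but these values cannot exclude it. With the replicate block, 158 of 159 differences kept their call, and Gdf11 between the constructs at day 0 (0.14) gained it (adjusted p = 0.0212), which took that count from 5 to 6. The genes most like each of 7 genes by Spearman's rho shared 0 or 1 of the 3 closest by Pearson's r.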

Other observations

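Further genes of the pathway, chosen after their values were seen, are described by their levels without a test. The 2 BMP targets Id1 and Id3 had their lowest levels in control cells at day 0, without overlap: Id1 was at 27.5 ± 0.6 FPKM for control cells, 84.1 ± 13 FPKM for full-length NFIA and 48.2 ± 2.4 FPKM for the mutant (SD, n = 3), and Id3 at 134 ± 3, 301 ± 28 and 354 ± 10 FPKM. At day 7, Id3 was at 117 ± 10, 52.6 ± 9.2 and 78.5 ± 7.9 FPKM. Fstl3, a relative of follistatin that also binds activins, was at 9.11 ± 0.80, 9.16 ± 0.45 and 11.1 ± 0.8 FPKM at day 0 and at 33.1 ± 4.4, 7.92 ± 0.88 and 25.1 ± 1.3 FPKM at day 7. Chrd, which encodes the BMP antagonist chordin, was at 9.87 ± 0.33, 4.55 ± 0.37 and 13.4 ± 1.3 FPKM at day 7. Tgfbr2, the type II receptor of TGF-β, was at 66.0 ± 0.45, 38.4 ± 1.0 and 44.5 ± 0.1 FPKM at day 0 and at 26.7 ± 2.5, 42.6 ± 2.1 and 27.6 ± 5.1 FPKM at day 7.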
